A study of Mus musculus with 13 samples.

Results

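The genes described here build the peroxisome or carry out its lipid chemistry. They were taken by name: 13 peroxins and 17 enzymes and transporters of peroxisomal lipid breakdown, ether lipid synthesis and peroxide removal, 30 genes in all. All 30 were found among the 23360 entries of the adipose table and the 24421 entries of the tumour table. The adipose table lists Pex11g under its older symbol Pex11c. All 30 also passed the filters on low values, and so are among the 13617 genes tested in fat and the 15117 tested in tumours.

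RNA was sequenced from epididymal fat and from prostate tumours of TRAMP mice, which carry a transgene that drives prostate cancer. Every mouse was TRAMP-positive, C57BL/6, 30 to 35 weeks old and fed a regular diet, so neither genotype is a tumour-free control. The knockout mice are labelled p62aP2KO, a deletion of p62 meant for adipocytes and named after aP2, the fat cell gene Fabp4, whose promoter is also known to work in some macrophages. The wild-type mice are labelled p62f/f and kept the floxed gene. There were 3 knockout and 3 wild-type libraries of fat, and 3 knockout and 4 wild-type libraries of tumour. Whether every library is another mouse is not stated in the labels. The p-values set the group difference against the spread between these libraries, and that spread may be technical in part.

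Peroxisomes are small organelles that import folded enzymes from the cytosol. Peroxins insert the membrane proteins, carry enzymes to the membrane, pass them through it, recycle the carriers and divide the organelle. Inside, very long-chain and branched fatty acids are shortened by oxidation that releases hydrogen peroxide, which catalase removes, and the first steps of ether lipid synthesis take place. In adipose tissue peroxisomes lie against lipid droplets, and their number is known to increase as fat cells mature.

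Genes of peroxisomal oxidation are classic targets of the PPAR receptors, which bind with RXR to repeats of AGGTCA. A sequence window of the 250 bases before the annotated start was given for 24 of the 30 genes (RefSeq, GRCm38.p6). Searched on both strands, the repeat AGGTCANAGGTCA was in 0 of the 24 and in 0.0335% of all 32851 windows of that length. A single AGGTCA was in 3 genes, Cat, Pex11g and Scp2, and in 14.0% of all windows. The letters CCAAT of the box of that name were in 11 genes and 33.8% of windows. The GC box, spelled GGGCGG, was in 17 genes and 32.7% of windows, and the E-box, spelled CACGTG, was in 1 gene, Gnpat, and 6.02% of windows. The stretches outside annotated exons are shown for Cat and Pex11g, because both hold AGGTCA and in both genes every knockout fat library was below every wild-type one. Capitals mark the receptor hexamer AGGTCA and the CCAAT and GC boxes, also where they lie on the opposite strand. The Cat stretch is chr2:103485161-103485403 and the Pex11g stretch is chr8:3467681-3467898, both on the minus strand and written 5′ to 3′.
Cat: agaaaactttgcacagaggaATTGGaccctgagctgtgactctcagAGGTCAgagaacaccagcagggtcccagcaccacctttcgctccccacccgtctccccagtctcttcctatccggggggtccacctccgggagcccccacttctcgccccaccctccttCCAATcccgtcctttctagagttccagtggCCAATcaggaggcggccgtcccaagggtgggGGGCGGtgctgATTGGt
Pex11g: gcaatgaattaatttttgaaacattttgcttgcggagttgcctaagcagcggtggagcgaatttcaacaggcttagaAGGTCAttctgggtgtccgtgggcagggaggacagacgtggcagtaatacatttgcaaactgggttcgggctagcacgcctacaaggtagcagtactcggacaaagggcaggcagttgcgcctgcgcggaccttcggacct
The Cat stretch held 4 CCAAT boxes, 1 receptor hexamer and 1 GC box, with no overlap among them, and the Pex11g stretch held 1 receptor hexamer. A match of letters is a description of the window and not a bound site.

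Sqstm1, the gene of p62, went against the labels in the libraries numbered 2. In fat it had 4.53, 54.5 and 2.58 FPKM in libraries labelled knockout 1 to 3, against 73.6, 1.77 and 84.3 FPKM in those labelled wild type 1 to 3. In tumours it had 8.97, 176 and 19.5 CPM in knockout 1 to 3, against 173, 5.65, 167 and 151 CPM in wild type 1 to 4. Whole knockout tumours 1 and 3 were thus far under wild type 1, 3 and 4, although the deletion is meant for adipocytes. The reason was not tested. Groups below follow the labels, and the main counts, the means over genes and several single genes are also given without the libraries numbered 2. Tumour libraries held 20134972 to 32475051 counts in knockout and 17810397 to 23587516 in wild type. Tissue markers fitted the tissues: Adipoq, the fat cell hormone adiponectin, had at least 1632 FPKM in every fat library, and the epithelial keratin Krt8 had at least 185 CPM in every tumour. Epididymis and seminal vesicle markers added up to 46867 CPM in knockout tumour 1 and 3182 CPM in wild-type tumour 1, against 7.69 to 223 CPM in the other tumours. Adam7 of that list had 4002 raw counts in wild-type tumour 4 and at most 10 in any other tumour. Neuroendocrine markers added up to 928 CPM in wild-type tumour 1, against 3.54 to 12.8 CPM in the other tumours.

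In epididymal fat most of the peroxisome genes had lower mean levels in the libraries labelled knockout, and the spread between libraries was too large for any of them to pass the test. Of 30 genes, 22 had a negative log2 fold change and 8 a positive one, where 49.5% and 50.5% of all genes tested had. The median of the 30 was -0.42, with a range of -1.77 to 0.45, and the median of all genes was 0.01. Every knockout library lay below every wild-type library in 11 of the 30, against 11.3% of all genes, and above in 0, against 9.87%. The 11 were Pex5, Pex13, Pex2, Pex10, Pex26, Pex11g, Abcd2, Amacr, Pecr, Cat and Gnpat. The largest difference of the 30 was that of Abcd2, an importer of very long-chain fatty acids, and the next smallest p was that of Gnpat, which starts ether lipid synthesis. By limma on log2(FPKM + 1), 0 of the 30 were called at an adjusted p under 0.05, as was 0.00734% of all genes (1 gene), and the smallest adjusted p was 0.137. At an unadjusted p under 0.05, 7 of the 30 were lower and 0 higher, against 8.14% and 6.88% of all genes.

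The count of 7 depended on single libraries: it was 4 when knockout 1 was left out (5.95% of all genes), 11 for knockout 3 (10% of all genes) and 2 for wild type 2 (7.4% of all genes). Without both libraries numbered 2, 22 of 30 were again negative, 15 had ranges apart with the knockout below (22.8% of all genes), and 2 were lower at an unadjusted p under 0.05 (6.28% of all genes). In bulk tissue, fewer cells of a type and less RNA per cell cannot be told apart. Adipocyte markers were lower at the mean in 8 of 9 genes (median log2 fold change -0.75) and their sum was 12903, 9410 and 15829 FPKM in knockout 1 to 3, against 17709, 15788 and 16339 FPKM in wild type 1 to 3. Of the 9, 0 were at 0 FPKM in every library, and the ranges of the sums overlapped. Macrophage markers were higher at the mean in 8 of 8 genes (median 1.35), with sums of 5200, 3148 and 2290 FPKM in knockout fat, against 1048, 2565 and 694 FPKM in wild-type fat. Cell division markers were positive in 6 of 6 genes tested (median 1.48), with sums of 104, 138 and 11.7 FPKM in knockout fat, against 17.7, 32.7 and 4.44 FPKM in wild-type fat. Neuroendocrine markers were positive in 6 of 6 (median 1.59), and their sum reached 121 FPKM in knockout 2, against 6.80 to 17.0 FPKM in wild-type fat. Among them Chgb and Insm1 had at most 0.0631 FPKM in wild-type fat, so they passed the filter only through knockout libraries. Of the marker lists, that of skeletal muscle alone had sums apart, at 9.74 to 39.6 FPKM in knockout fat and 51.0 to 133 FPKM in wild-type fat. Nearly all of that sum was Acta1, at 9.13 to 39.4 FPKM in knockout fat and 50.1 to 131 FPKM in wild-type fat. Ckm, Myh4, Tnnt3 and Mylpf had at most 1.86 FPKM in any fat library and did not pass the filter, so the list rests on 1 gene. The part of these cell types in the peroxisome values was not tested.

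**Figure D1:**
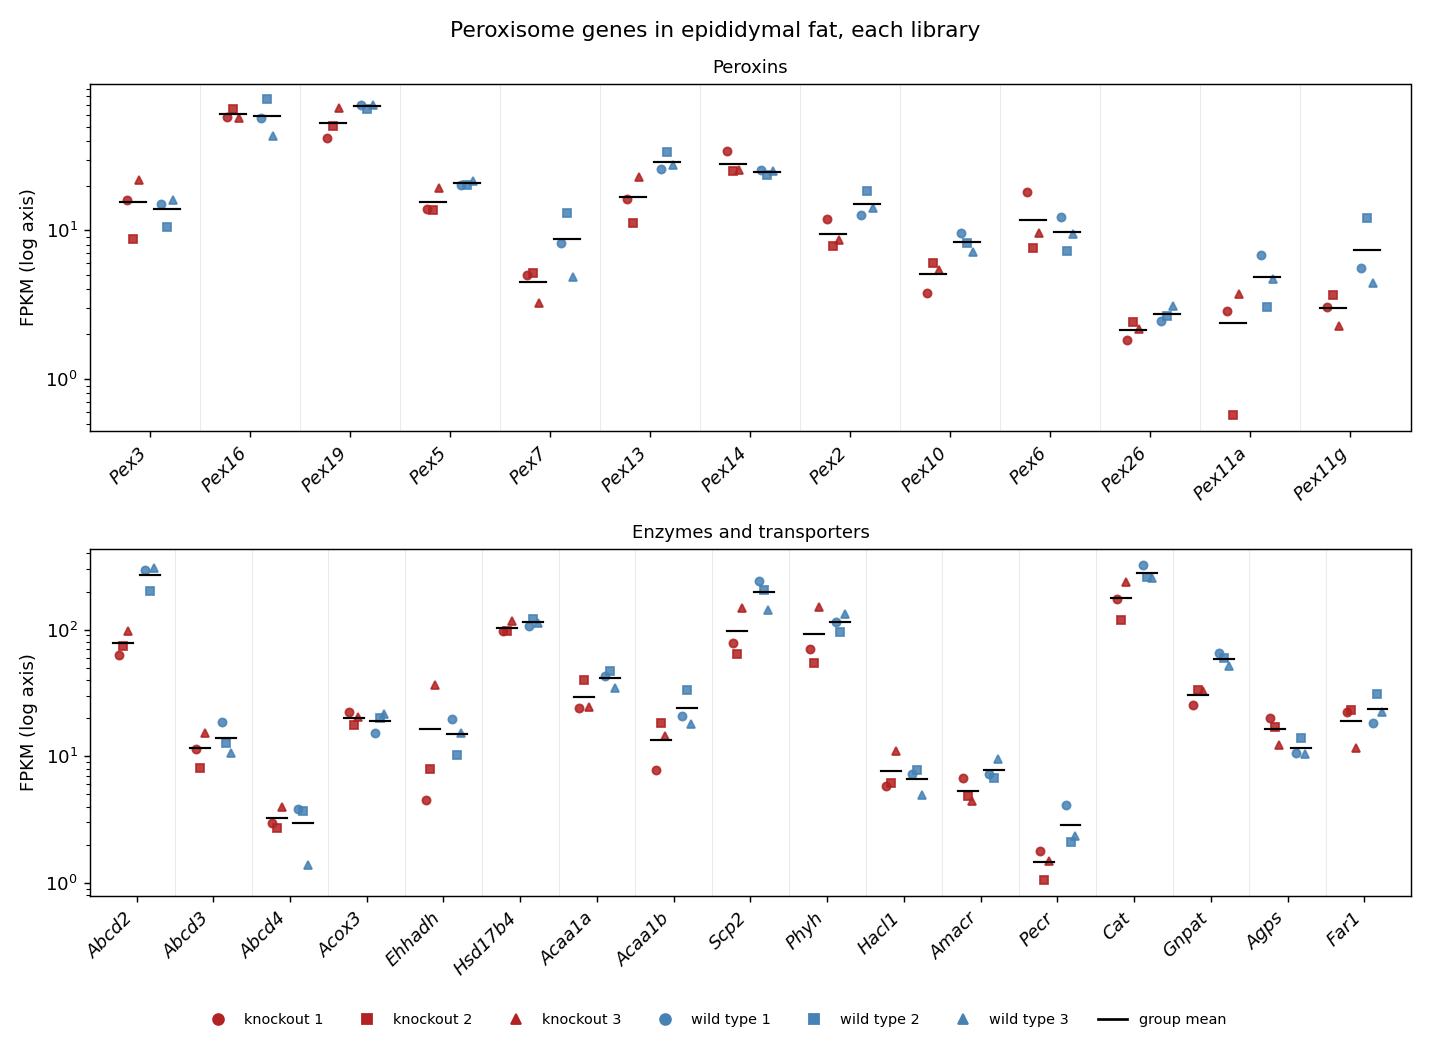
FPKM (log axis) of the 30 genes in each fat library, with knockout points in red to the left of wild-type points in blue for each gene and a black bar at each group mean. Abcd2 stands at 62.5 to 96.8 FPKM in knockout fat and 202 to 308 FPKM in wild-type fat, and red lies wholly under blue in 11 of the 30 genes.

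Among the peroxins, 9 of 13 had a negative log2 fold change in fat, with a median of -0.40, and the knockout range lay below the wild-type range in 6. The clearest case by role was the RING ubiquitin ligase, which tags the import receptor so that it can leave the membrane. Pex10, a ligase subunit, had 3.80, 6.00 and 5.40 FPKM in knockout 1 to 3, against 9.65, 8.16 and 7.14 FPKM in wild type 1 to 3. All 3 knockout values were under all 3 wild-type values, with a log2 fold change of -0.63 (SE 0.241, limma adjusted p = 0.290). Pex2, another subunit, had 12.0, 7.90 and 8.57 FPKM in knockout fat, against 12.7, 18.3 and 14.1 FPKM in wild-type fat. Its groups were also apart, by a narrow margin between knockout 1 and wild type 1, at a log2 fold change of -0.62 (SE 0.246, limma adjusted p = 0.304).

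The docking proteins receive the loaded receptor at the membrane, and they differed from each other. Pex13 had 16.3, 11.3 and 23.0 FPKM in knockout fat, against 26.1, 33.6 and 27.4 FPKM in wild-type fat. These groups did not overlap, and the log2 fold change was -0.80 (SE 0.287, limma adjusted p = 0.277). Pex14, its partner at the docking site, had 34.3, 25.0 and 25.3 FPKM in knockout fat, against 25.3, 23.7 and 25.2 FPKM in wild-type fat. Apart from the higher value of knockout 1, the groups of Pex14 overlapped (log2 fold change 0.17, SE 0.215, limma adjusted p = 0.738). An antisense gene, Gm17029, covers 28.3% of the Pex14 exons, and whether counting used the strand is not given in the sources used here, so Pex14 is uncertain.

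Import receptors carry enzymes by their targeting signals, Pex5 for the common signal at the protein end and Pex7 for a rarer one. Pex5 had 13.9, 13.6 and 19.3 FPKM in knockout fat, against 20.2, 20.3 and 21.6 FPKM in wild-type fat. Knockout 3 came within 1 FPKM of the wild-type libraries without reaching them (log2 fold change -0.40, SE 0.217, limma adjusted p = 0.426). Pex7 had 3.24 to 5.20 FPKM in knockout fat, and wild type 3, at 4.84 FPKM, lay in that range (log2 fold change -0.75, limma adjusted p = 0.366).

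The division peroxins, which elongate the membrane before it splits, had the lowest fold changes of the peroxins. Pex11g had 3.06, 3.68 and 2.28 FPKM in knockout fat, against 5.56, 12.1 and 4.43 FPKM in wild-type fat. No value overlapped, and wild type 2 stood well above the other wild-type libraries (log2 fold change -0.97, SE 0.367, limma adjusted p = 0.288). Gm44775, on the other strand, covers 41.1% of the Pex11g exons, so that this value is uncertain too. Pex11a, a form known to be induced by PPARα, had 2.88, 0.569 and 3.74 FPKM in knockout fat, against 6.78, 3.06 and 4.73 FPKM in wild-type fat, with overlap (log2 fold change -0.88, limma adjusted p = 0.420).

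The peroxins that insert membrane proteins stood nearer to 0. Pex3, the membrane anchor, and Pex16, its recruiter, had log2 fold changes of 0.09 and 0.07. Pex19, the soluble carrier of membrane proteins, had -0.38. All 3 overlapped between the groups. For receptor export, the motor subunit Pex6 had 0.20 with overlap, and its membrane anchor Pex26 had -0.26, with knockout values of 1.82 to 2.43 FPKM just under the wild-type values of 2.46 to 3.12 FPKM.

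The enzymes and transporters had a negative log2 fold change in 13 of 17 genes in fat, a median of -0.44, and a knockout range below the wild-type range in 5. The ABC transporters of family D bring fatty acyl-CoA into the peroxisome. Abcd2 had 62.5, 74.1 and 96.8 FPKM in knockout 1 to 3, against 295, 202 and 308 FPKM in wild type 1 to 3. The highest knockout library, at 96.8 FPKM, was far under the lowest wild-type library, at 202 FPKM. The mean was 77.8 ± 17.5 FPKM in knockout fat and 268 ± 58.0 FPKM in wild-type fat (SD, n = 3 each), a log2 fold change of -1.77 (SE 0.293, limma adjusted p = 0.137), and rank 39 by p of the 13617 genes tested. Without the libraries numbered 2 it was -1.94 (limma adjusted p = 0.173). Abcd3, the broad-range transporter of peroxisomal membranes, and Abcd4, which works on cobalamin in lysosomes, had log2 fold changes of -0.25 and 0.15, and their groups overlapped.

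Of the 6 genes of beta-oxidation, 5 were negative and all 6 overlapped between the groups. Scp2, whose long form is the thiolase for branched chains, had 78.5, 64.6 and 149 FPKM in knockout fat, against 244, 207 and 144 FPKM in wild-type fat. Knockout 3 was slightly above wild type 3, and the other knockout libraries were far below every wild-type library. Its log2 fold change was -1.08 (SE 0.380, limma adjusted p = 0.269), and -0.79 without the libraries numbered 2 (adjusted p = 0.539). Ehhadh, the bifunctional enzyme of straight chains, had 4.48, 7.86 and 36.6 FPKM in knockout fat, against 19.8, 10.2 and 15.3 FPKM in wild-type fat. The knockout libraries held both the lowest and the highest value (log2 fold change -0.35, limma adjusted p = 0.833), and the linear means, 16.3 FPKM in knockout and 15.1 FPKM in wild type, stood in the other order. The bifunctional enzyme of branched chains, Hsd17b4, and the branched-chain oxidase Acox3 had log2 fold changes of -0.14 and 0.09.

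Acaa1a and Acaa1b are near-identical copies of the straight-chain thiolase, both on chromosome 9. Their longest coding transcripts were identical at 1507 of 1666 aligned bases (90.5%), and 27.3% and 28.5% of their 75-base words, the length of a read, were shared, so their split is uncertain. Acaa1a had 24.1, 39.7 and 24.4 FPKM in knockout fat, against 42.9, 46.8 and 34.5 FPKM in wild-type fat. Knockout 2 lay inside the wild-type range (log2 fold change -0.51, SE 0.270, limma adjusted p = 0.420). Acaa1b had 7.84, 18.2 and 14.4 FPKM in knockout fat, against 20.8, 33.6 and 18.1 FPKM in wild-type fat. Here knockout 2 just passed wild type 3 (log2 fold change -0.82, SE 0.361, limma adjusted p = 0.342).

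Alpha-oxidation takes a single carbon off methyl-branched fatty acids, and its genes split in sign. Phyh, the hydroxylase, had a log2 fold change of -0.44, and Hacl1, the lyase, had 0.15, both with overlap. Another gene annotated on the same strand, Gm49387, covers 31.1% of the Hacl1 exons. Amacr, the racemase that prepares branched chains, had 4.44 to 6.71 FPKM in knockout fat and 6.72 to 9.45 FPKM in wild-type fat, so that the groups touched without overlap (log2 fold change -0.48). Pecr, a reductase of enoyl-CoA, had 1.04 to 1.80 FPKM in knockout fat and 2.11 to 4.11 FPKM in wild-type fat (log2 fold change -0.63). Neither passed the limma test, with adjusted p of 0.396 for Amacr and 0.403 for Pecr.

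Cat, the catalase that breaks down hydrogen peroxide, had 176, 119 and 236 FPKM in knockout fat, against 326, 259 and 254 FPKM in wild-type fat. The groups did not overlap, with knockout 3 nearest to the wild-type libraries. The mean was 177 ± 58.8 FPKM in knockout fat and 280 ± 40.5 FPKM in wild-type fat (SD, n = 3 each; log2 fold change -0.70, SE 0.326, limma adjusted p = 0.360). With the libraries numbered 2 left out, the log2 fold change was -0.50 for Cat (adjusted p = 0.593) and -0.45 for Pex13 (adjusted p = 0.580).

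The ether lipid enzymes did not share a sign. Gnpat, which attaches the first acyl chain, had 25.5, 33.2 and 32.7 FPKM in knockout fat, against 65.2, 59.2 and 51.5 FPKM in wild-type fat. No library of one group came near the other, and the fold of knockout over wild type was 0.526 (log2 fold change -0.93, SE 0.223, limma adjusted p = 0.193). Without the libraries numbered 2 it was -0.98 (adjusted p = 0.309). Agps, which exchanges that acyl chain for a fatty alcohol in the next step, had 20.2, 16.9 and 12.3 FPKM in knockout fat, against 10.6, 13.9 and 10.4 FPKM in wild-type fat. Knockout 3 lay inside the wild-type range, and the log2 fold change of 0.45 was the highest of the 30 (SE 0.251, limma adjusted p = 0.434). Far1, which makes the fatty alcohol, had -0.33 with overlap.

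Libraries differed within the knockout group. Of the 30 genes, 23, 27 and 18 were under the wild-type mean of log2 values in knockout fat 1, 2 and 3, against 12, 15 and 18 in wild-type fat 1, 2 and 3. Knockout 3 held the highest value of the 6 libraries for Pex3, Ehhadh, Phyh, Hacl1 and Abcd4. Its adipocyte marker sum was the highest of the knockout libraries and its macrophage sum the lowest, and their part was not tested.

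Peroxins and enzymes were set against each other in every library by the mean over the genes of log2(FPKM + 1) minus the wild-type mean. For peroxins this mean was -0.32, -0.57 and -0.30 in knockout fat, against 0.04, 0.07 and -0.11 in wild-type fat. For enzymes and transporters it was -0.57, -0.57 and -0.20 in knockout fat, against 0.10, 0.02 and -0.12 in wild-type fat. Both means were lower in every knockout library than in every wild-type library, with differences between group means of -0.40 for peroxins and -0.45 for enzymes. The difference of peroxins minus enzymes was 0.25, -0.00 and -0.10 in knockout fat, against -0.06, 0.05 and 0.01 in wild-type fat. These values overlapped, and the group means differed by 0.05 with a pooled SD of 0.133, so a shift of one set against the other was not resolved. Without the libraries numbered 2 the differences were -0.27 for peroxins, -0.37 for enzymes and 0.10 for peroxins minus enzymes. No test is given for these means, because the genes were chosen with results of these data known.

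**Figure D2:**
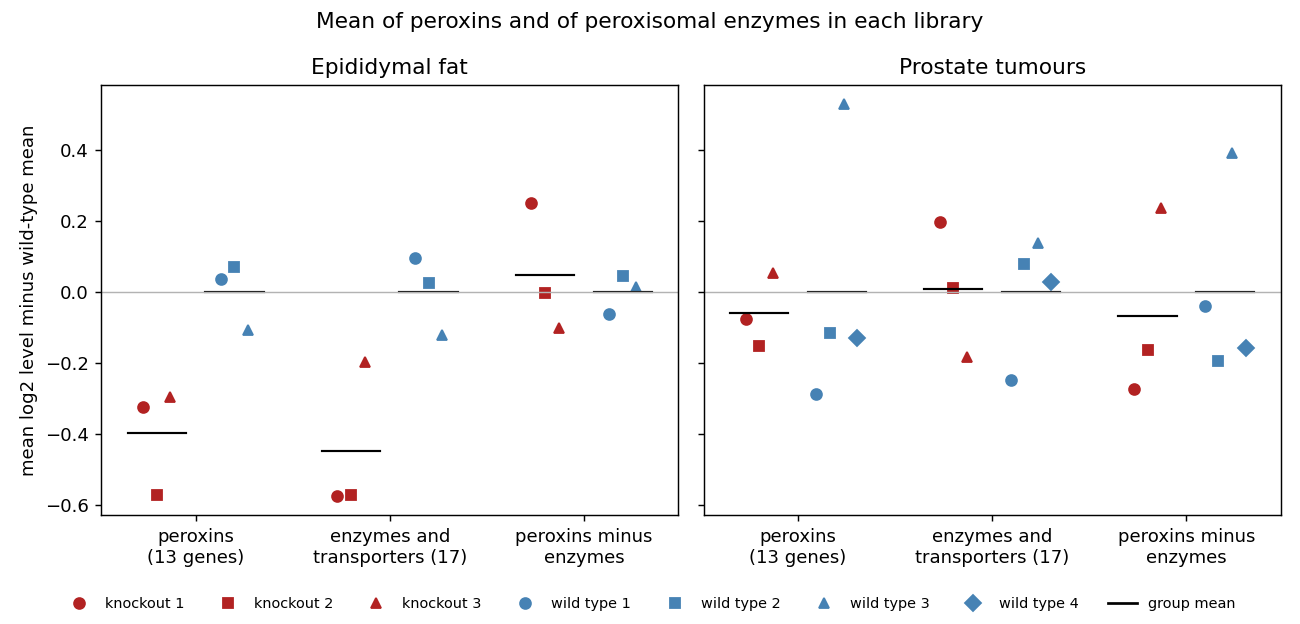
Mean log2 level minus the wild-type mean for the 13 peroxins, the 17 enzymes and transporters, and peroxins minus enzymes, with each library as a point (knockout red, left; wild type blue, right) and a black bar at the group mean, fat in the left panel and tumours in the right. In fat the peroxin points are -0.57 to -0.30 in knockout and -0.11 to 0.07 in wild type; in tumours the groups overlap for all 3 measures.

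Other peroxisomal genes in fat had a similar distribution of fold changes. Of 64 listed genes 52 were tested, 39 of them negative and 13 positive, with a median of -0.42, and limma called 0. The 8 that were lower and 1 that was higher at an unadjusted p under 0.05 compare with 8.14% and 6.88% of all genes. All 14 of the other membrane proteins, proteases and hydrolases were negative (median -0.44), 7 of them with the knockout range below, as in 11.3% of all genes. Of the other oxidases and antioxidant genes 9 of 11 were negative (median -0.67). The 16 other beta-oxidation genes split into 9 negative and 7 positive (median -0.19), with the knockout range below in 2 and above in 2. The 4 other ether lipid genes split into 2 and 2. Some of these signs were set by the filter on low values. The oxidases Dao and Pipox and, in beta-oxidation, Slc27a2 had 29.5, 12.5 and 20.1 FPKM in wild-type fat 3. In every other fat library they had at most 0.402 FPKM, so they passed only through that library and had to be negative. Acot3, which was positive, had at most 0.0745 FPKM in wild-type fat and passed only through knockout libraries. Nudt7, which hydrolyses coenzyme A inside the peroxisome, had 8.64, 9.14 and 20.6 FPKM in knockout fat, against 54.8, 45.5 and 34.6 FPKM in wild-type fat. Its groups were apart, with a log2 fold change of -1.82 (SE 0.361, limma adjusted p = 0.171). Tmem135, a peroxisomal membrane protein of lipid metabolism, had 12.1, 19.0 and 17.0 FPKM in knockout fat, against 40.3, 67.0 and 36.8 FPKM in wild-type fat. It too did not overlap (log2 fold change -1.50, SE 0.301, limma adjusted p = 0.173). Mpv17l, another membrane protein, had 1.41 to 2.15 FPKM in knockout fat and 3.43 to 5.51 FPKM in wild-type fat. Acbd4, which tethers peroxisomes to the endoplasmic reticulum, had 20.6 to 42.3 FPKM in knockout fat and 53.8 to 74.0 FPKM in wild-type fat. Their log2 fold changes were -1.01 and -1.07, and neither passed (limma adjusted p = 0.212 and 0.215).

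The nuclear receptors and coactivators that act on these genes were lower at the mean in 5 of 8 in fat, where 49.5% of all genes tested were. Rxra, a partner with which the PPAR receptors bind DNA, had 21.4, 23.4 and 31.6 FPKM in knockout fat, against 52.7, 38.2 and 46.3 FPKM in wild-type fat. It was the single gene of the 8 whose groups did not overlap (log2 fold change -0.83, SE 0.244, limma adjusted p = 0.223). A knockout range below the wild-type range was thus found in 12.5% of the 8, near the 11.3% of all genes. Rxrb, another such partner, had 21.8, 10.8 and 41.1 FPKM in knockout fat, against 10.7, 17.7 and 8.18 FPKM in wild-type fat, with overlap and the opposite sign (log2 fold change 0.83, limma adjusted p = 0.452). Pparg, the receptor that drives fat cell formation, had 59.4, 100 and 172 FPKM in knockout fat, against 341, 163 and 291 FPKM in wild-type fat. Only wild type 2 lay within the knockout range (log2 fold change -1.32, limma adjusted p = 0.264). Ppara, the receptor known for inducing peroxisomal oxidation in liver, had 0.910, 0.935 and 4.25 FPKM in knockout fat, against 6.18, 2.39 and 5.64 FPKM in wild-type fat. Knockout 3 exceeded wild type 2 (log2 fold change -1.02, limma adjusted p = 0.379). The coactivator Ppargc1a had 1.87, 0.379 and 1.78 FPKM in knockout fat, against 2.90, 1.57 and 4.40 FPKM in wild-type fat, again with overlap (log2 fold change -0.77, limma adjusted p = 0.442).

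In the prostate tumours the same 30 genes showed no common direction. There were 14 negative and 16 positive log2 fold changes, with a median of 0.02 and a range of -0.57 to 0.48, where 56.8% of all genes tested were negative and their median was -0.07. Limma voom turned the split round, with 16 negative and 14 positive. Knockout values lay above all wild-type values in 1 gene, Pex14 (6.69% of all genes), and below in 0 (7.05%). By edgeR, 0 of the 30 were called, as were 0% of all genes, and the smallest adjusted p was 0.456. At an unadjusted p under 0.05 edgeR gave 0 of the 30 (12.4% of all genes), DESeq2 gave 0 (15.4%) and limma voom 0 (10.7%). DESeq2 called 0 of the 30 and 5.49% of all genes at an adjusted p under 0.05, and voom called 0 and 0%.

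The edgeR count of 0 at an unadjusted p under 0.05 was 1 without knockout tumour 1 (8.66% of all genes), 2 without wild-type tumour 1 (12.7%), and 0 without both libraries numbered 2 (6.48%). Without those numbered 2 the split was 16 negative and 14 positive, with a median of -0.02. Single tumours decided many signs: 19 of the 30 genes took the opposite sign in at least 1 fit with a tumour left out, 10 of them without wild-type tumour 3. Marker levels differed between the tumour groups: summed macrophage markers were 317 to 1980 CPM in knockout and 171 to 227 CPM in wild type, and cell division markers were 66.6 to 279 CPM in knockout and 806 to 2635 CPM in wild type. Endothelial markers, at 114 to 231 CPM in knockout and 51.5 to 106 CPM in wild type, and skeletal muscle markers, at 32.6 to 91.2 CPM in knockout and 95.6 to 174 CPM in wild type, were apart too. None of these sums overlapped between groups, 0 of the 8 macrophage and 0 of the 7 cell division markers were at 0 in every tumour, and their part in the peroxisome values was not tested.

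**Figure D3:**
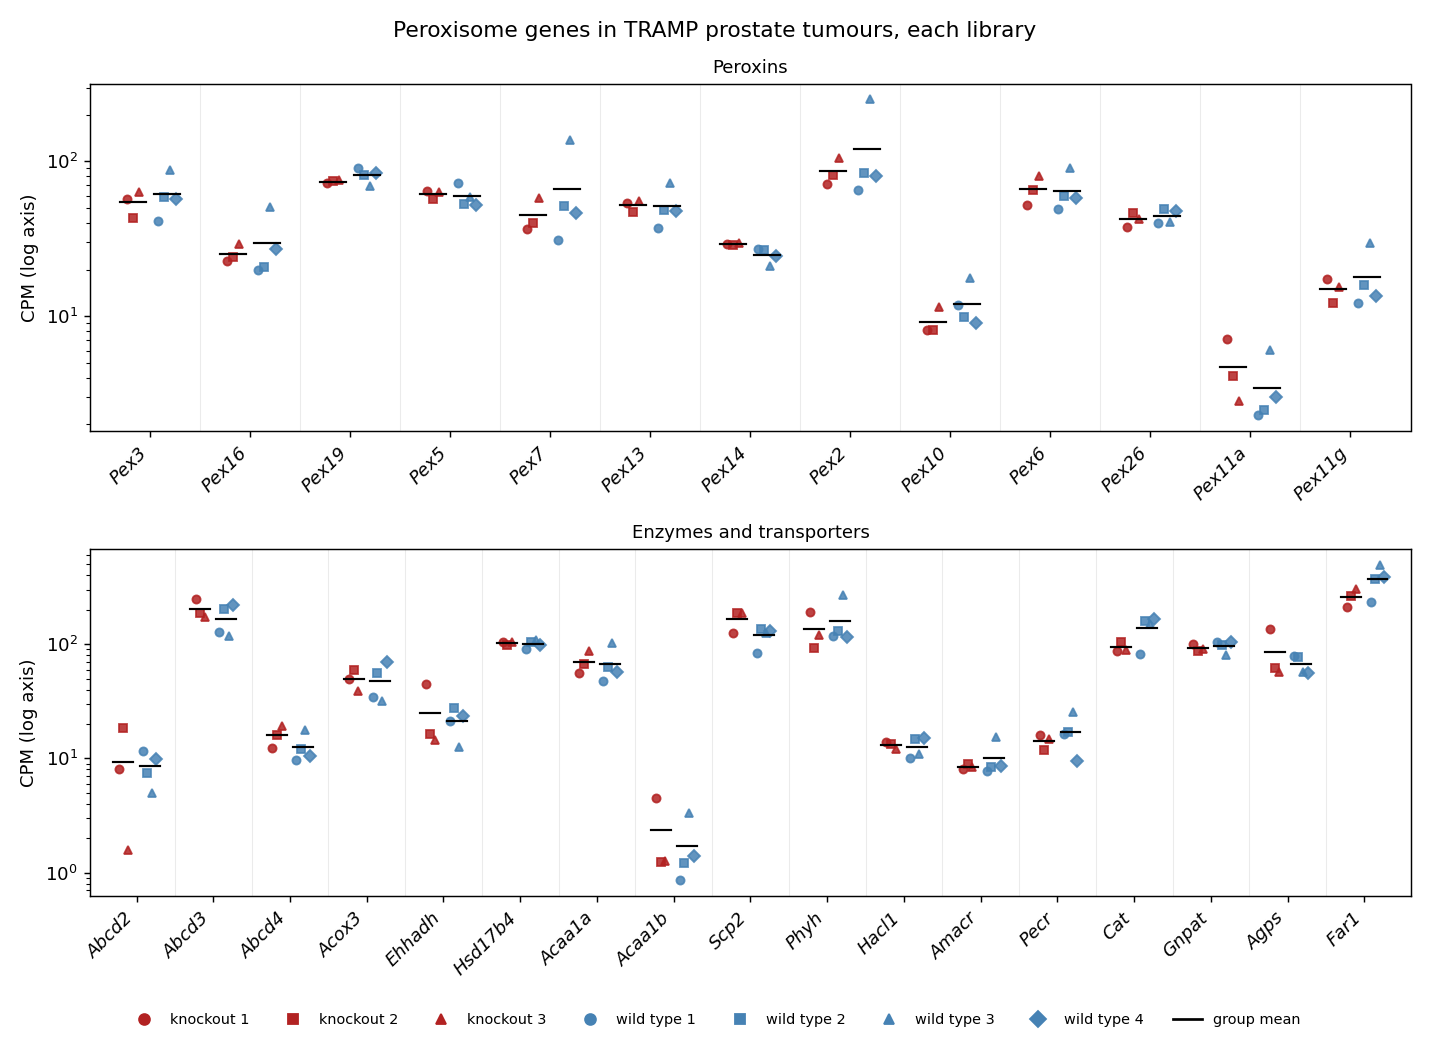
CPM (log axis) of the 30 genes in each tumour library, with knockout points in red to the left of wild-type points in blue for each gene and a black bar at each group mean. Wild-type tumour 3, the blue triangle, is the highest of the 7 in several peroxins, with 251 CPM of Pex2.

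Cat had the smallest p of the 30 in tumours. It had 88.0, 105 and 89.4 CPM in knockout tumours 1 to 3, against 81.3, 159, 149 and 167 CPM in wild-type tumours 1 to 4. The knockout tumours were under 3 of the wild-type tumours and above wild type 1 (log2 fold change -0.56, SE 0.275, edgeR adjusted p = 0.456). Scp2 had 125, 188 and 188 CPM in knockout tumours, against 84.4, 137, 126 and 131 CPM in wild-type tumours. Here 2 knockout tumours were above all wild-type tumours and knockout 1 was within their range (log2 fold change 0.48, SE 0.249, edgeR adjusted p = 0.480). Without the libraries numbered 2 the log2 fold changes were -0.57 for Cat and 0.47 for Scp2.

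Ether lipid genes again split. Far1 had 211, 266 and 304 CPM in knockout tumours, against 233, 370, 498 and 392 CPM in wild-type tumours. Wild type 1 lay among the knockout values and the other wild-type tumours lay above them (log2 fold change -0.52, SE 0.300, edgeR adjusted p = 0.532). Agps had 137, 62.4 and 56.8 CPM in knockout tumours, against 78.5, 77.2, 57.2 and 56.0 CPM in wild-type tumours. Its log2 fold change of 0.35 rested on knockout 1, and was -0.17 without that library. Gnpat, so far apart in fat, had 99.5, 87.4 and 91.0 CPM in knockout tumours, against 105, 98.1, 79.8 and 105 CPM in wild-type tumours. Those values overlapped, with a log2 fold change of -0.06 (SE 0.181, edgeR adjusted p = 0.911).

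The tumour peroxins had 8 of 13 negative fold changes and a median of -0.14, and wild-type tumour 3 stood apart in many of them. Pex7 had 36.7, 39.9 and 58.2 CPM in knockout tumours, against 30.9, 51.3, 138 and 46.8 CPM in wild-type tumours. Its log2 fold change was -0.57 (SE 0.501, edgeR adjusted p = 0.689), and 0.07 without wild-type tumour 3. Pex10 had 8.11, 8.10 and 11.5 CPM in knockout tumours, against 11.8, 9.83, 17.7 and 9.04 CPM in wild-type tumours. Knockout 3 lay inside the wild-type range and the other knockout tumours under it (log2 fold change -0.39, SE 0.368, edgeR adjusted p = 0.709). Without wild-type tumour 3 it was -0.14, and without knockout tumour 3 it was -0.56. Pex14 had 29.2, 28.9 and 29.9 CPM in knockout tumours, against 27.1, 26.9, 21.2 and 24.5 CPM in wild-type tumours. All knockout values were above all wild-type values by a small margin, with a log2 fold change of 0.23 (SE 0.208, edgeR adjusted p = 0.691).

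Pex5 had 64.7, 57.0 and 63.4 CPM in knockout tumours, against 72.8, 53.2, 59.1 and 52.4 CPM in wild-type tumours. The groups overlapped around a log2 fold change of 0.06 (edgeR adjusted p = 0.931). Pex13 had 53.9, 47.3 and 55.5 CPM in knockout tumours, against 36.9, 48.4, 72.8 and 47.5 CPM in wild-type tumours. The wild-type tumours held both its lowest and its highest value (log2 fold change 0.02, edgeR adjusted p = 0.979). The other 8 peroxins overlapped as well. The log2 fold change of Pex2 was -0.48 with all tumours and 0.17 without wild-type tumour 3. That of Pex11a was 0.45 with all tumours and 0.02 without knockout tumour 1.

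Of the tumour enzymes and transporters, 11 of 17 had a positive log2 fold change, with a median of 0.05. All 6 genes of beta-oxidation and all 3 ABC transporters were positive, where 43.2% of all genes were, with values of 0.02 to 0.48 and 0.13 to 0.35. Limma voom gave 5 of 6 and 2 of 3 positive, so these signs depend on the tool. They also depend on single tumours: 5 of the 6 and 1 of the 3 (Abcd2) turned negative when some tumour was left out, and Scp2 did not. Of the branched-chain genes, Phyh had a log2 fold change of -0.23, Amacr -0.24, Pecr -0.27 and Hacl1 0.05, all with overlap. Without wild-type tumour 3 these were 0.17 for Phyh, 0.04 for Amacr and -0.006 for Pecr. Abcd4 had 12.3, 16.1 and 19.3 CPM in knockout tumours, against 9.65, 12.0, 17.8 and 10.5 CPM in wild-type tumours, with overlap (log2 fold change 0.35, edgeR adjusted p = 0.715). Abcd2 had 8.01, 18.4 and 1.57 CPM in knockout tumours, against 11.7, 7.53, 5.03 and 9.90 CPM in wild-type tumours. The knockout tumours held both extremes (log2 fold change 0.13, SE 0.724, edgeR adjusted p = 0.960). Summed adipocyte markers were highest in knockout tumour 2 (1401 CPM) and lowest in knockout tumour 3 (211 CPM), and their part in the Abcd2 values was not tested.

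Acaa1a had 56.2, 67.4 and 87.8 CPM in knockout tumours, against 47.3, 62.9, 102 and 57.3 CPM in wild-type tumours. The groups overlapped widely, and its log2 fold change of 0.07 took either sign when single tumours were left out (-0.11 without knockout 3). Acaa1b, with only 16 to 90 raw counts in a tumour, had 4.54, 1.25 and 1.27 CPM in knockout tumours, against 0.853, 1.21, 3.33 and 1.39 CPM in wild-type tumours. Knockout 1 alone set its log2 fold change of 0.47, which was -0.42 without that library.

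Tumour means over peroxins were -0.07, -0.15 and 0.05 in knockout tumours, against -0.29, -0.11, 0.53 and -0.13 in wild-type tumours, on the log2 CPM scale minus the wild-type mean. Enzymes and transporters had 0.20, 0.01 and -0.18 in knockout tumours, against -0.25, 0.08, 0.14 and 0.03 in wild-type tumours. Peroxins minus enzymes came to -0.27, -0.16 and 0.24 in knockout tumours, against -0.04, -0.19, 0.39 and -0.16 in wild-type tumours. All 3 measures overlapped, with group differences of -0.06, 0.01 and -0.07, each smaller than the pooled SD of 0.287, 0.179 and 0.269. Their signs rested on single tumours. With 1 left out at a time the differences ran from -0.15 to 0.13 for peroxins, from -0.08 to 0.12 for enzymes and from -0.22 to 0.06 for peroxins minus enzymes, and without wild-type tumour 3 they were 0.13, 0.06 and 0.06. They were -0.04, 0.04 and -0.08 without the libraries numbered 2.

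Of the 64 other peroxisomal genes 52 were tested in tumours, 32 of them negative, and edgeR called 0. At an unadjusted p under 0.05, 2 were lower and 2 higher (6.26% and 6.17% of all genes), and DESeq2 called 2 at an adjusted p under 0.05 (5.49% of all genes). Idh1, the NADPH-making dehydrogenase shared by cytosol and peroxisome, had 768, 216 and 156 CPM in knockout tumours, against 64.7, 108, 152 and 79.7 CPM in wild-type tumours. The groups were just apart, between knockout 3 and wild type 3 (log2 fold change 1.91, SE 0.570, edgeR adjusted p = 0.241). Slc27a2, a very long-chain acyl-CoA synthetase, had 0.381 to 1.26 CPM in knockout tumours and 1.30 to 9.42 CPM in wild-type tumours, and the oxidase Xdh had 80.2 to 223 CPM in knockout tumours and 18.3 to 80.8 CPM in wild-type tumours. Pex5l, a relative of Pex5 found mainly in brain, had 36.3 CPM in wild-type tumour 1, the tumour with the high neuroendocrine markers, and at most 3.25 CPM in the others. None of these 3 passed edgeR (adjusted p = 0.319, 0.327 and 0.361). Ppargc1a had 13.6, 13.8 and 16.7 CPM in knockout tumours, against 28.6, 22.7, 33.0 and 19.2 CPM in wild-type tumours, without overlap (log2 fold change -0.81, SE 0.281, edgeR adjusted p = 0.303). Ppara and Pparg overlapped, at log2 fold changes of -0.50 and 0.79. Of the 8 nuclear receptors and coactivators, Ppargc1a was the 1 with the knockout range below (7.05% of all genes). The knockout range lay above in 3 (6.69% of all genes), Rxra, Rxrb and Nr1h3, at log2 fold changes of 0.66, 0.16 and 1.18. EdgeR called 0 of the 8.

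The genotype effects in fat and in tumours were then compared in 1 limma fit over the 12392 genes tested in both. The effect in fat minus the effect in tumour was negative in 23 of the 30 genes, with a median of -0.31, where the median of all genes was -0.02. Limma called 0 of the 30 and 0% of all genes, and 3 of the 30 had an unadjusted p under 0.05, against 11.7% of all genes. Scp2 had opposite signs in the tissues, and a difference of -1.56 (SE 0.452, adjusted p = 0.157). Gnpat had -0.87 (SE 0.268, adjusted p = 0.180), Pex13 had -0.86 (SE 0.385, adjusted p = 0.410) and Abcd2 had -1.51 (SE 0.751, adjusted p = 0.469). The tumour effects in this fit are on log2(CPM + 1), so they differ from the edgeR values given above. For Abcd2 the separate fits gave -1.77 in fat and 0.13 in tumours, which do not subtract to -1.51. Cat, lower at the mean in both tissues, had -0.20 (SE 0.422, adjusted p = 0.902).

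Leaving out knockout fat 3 took Scp2 to -1.91 with an adjusted p of 0.0331, the only limma call among the 30 in any fit with a library left out. Over the 13 such fits its adjusted p ran up to 0.357. The 3 genes at an unadjusted p under 0.05 were 5 without knockout fat 3 (15.6% of all genes), 8 without wild-type tumour 3 (14.7%) and 1 without the 4 libraries numbered 2 (7.65%). In the last of these fits the difference was negative in 21 of the 30, with a median of -0.25.

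**Figure D4:**
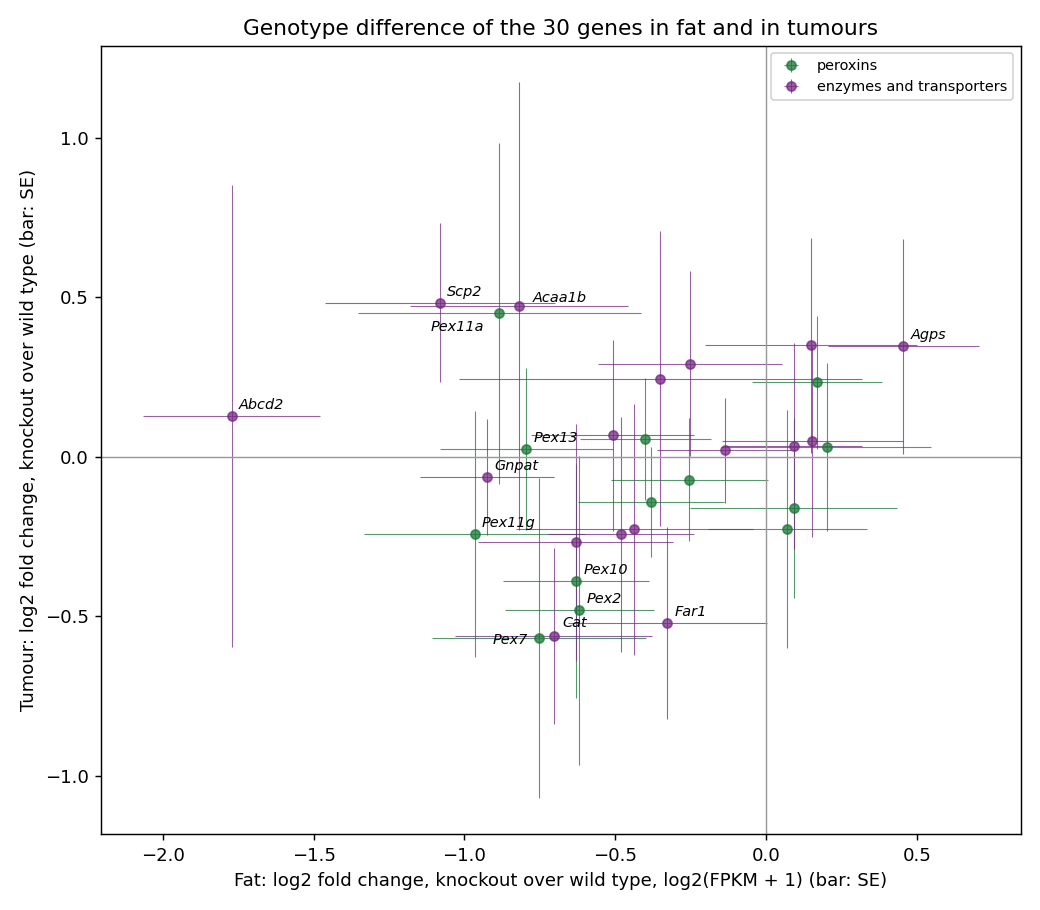
Log2 fold change of knockout over wild type in fat (horizontal) and in tumours (vertical) for the 30 genes, with bars of 1 standard error, peroxins in green and enzymes and transporters in purple. In fat 22 of 30 points lie left of 0, out to Abcd2 at -1.77, while the tumour values lie between -0.57 and 0.48.

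The genes also differed in level, which is compared here per length within a tissue. In wild-type fat Cat led with 280 FPKM, followed by Abcd2 with 268 and Scp2 with 198 FPKM. The SDs of 40.5, 58.0 and 50.3 FPKM (n = 3) leave Cat and Abcd2 unresolved. Phyh and Hsd17b4 followed at 115 and 114 FPKM, also within their spread, and the lowest was Pex26 at 2.75 FPKM. In wild-type tumours, with CPM divided by kilobases of merged exon, Phyh led with 83.7 ± 39.7, followed by Cat with 53.2 ± 15.0 and Pex2 with 53.1 ± 38.6 (SD, n = 4), so that these neighbours were not apart either. Pex2 stood this high through wild-type tumour 3, without which it was at 33.9, below Far1 at 41.1. Abcd2, rank 2 in fat, was rank 28 of 30 in wild-type tumours at 1.44 CPM per kilobase, and Acaa1b was the lowest at 0.864.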

How the data were processed

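Polyadenylated RNA was read as single ends of 75 bases from directional libraries, per the labels' protocols. Per the submitters' processing notes, DESeq2, STAR and mm10 were used, with no roles stated. No source used here gives the read counter or its annotation. The authors deposited tumour counts per gene, with totals of 17810397 to 32475051. The authors' fat table names no unit. Its deposited values are fractional, add up to 1107210 to 2114960 in a library and are extreme in genes shorter than a read, and were therefore read as FPKM. Their medians over genes above 0 in every library were 8.35 to 8.48, so changes of total RNA cannot be seen. Absolute depth of the fat libraries is unknown. The most common ratio of low values, which held 147 to 280 of 1044 to 1600 low genes, put their depth at 0.840 to 2.76 times that of knockout fat 1.

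Fat was tested with limma 3.58.1 (trend) on log2(FPKM + 1), which understates the change of low genes, keeping genes that averaged 1 FPKM or more. Tumours were tested with edgeR 4.0.16 (quasi-likelihood, TMM, filterByExpr at a count of 10) in R 4.3.3, and alternatively with limma voom and DESeq2 1.42.0. The 2 tables were normalized separately, and the difference of their genotype effects was tested in 1 limma fit on log2(FPKM + 1) and log2(CPM + 1). Tests were two-sided, p-values were adjusted over all genes (Benjamini-Hochberg), and an adjusted p under 0.05 was a call. The scripts were tested on simulated data. CPM used TMM library sizes, and list means of tumours a prior count of 2.

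The genes and lists were chosen with earlier results of these data known. Library values were given for the 8 members with the smallest p per tissue, for Cat, Pex5, Pex14, Acaa1a and Acaa1b, for the 4 with the smallest p of the tissue difference, for the 4 other peroxisomal genes with the smallest p per tissue, and for Ppara, Pparg and Ppargc1a. Pex11a, Ehhadh, Rxra and Rxrb in fat fall outside that rule, and their library values were added after they were seen. Replicate numbers come from the sample titles. Deviations from group means correlated at 0.181, 0.127 and 0.278 in tumours with the same number, so the numbers may pair tumours 1 to 3, and a fit with the number as a block was run as an alternative. The tests given are without the block.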

Additional observations from a re-analysis of the deposited data

Results flagged for a closer look

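In the group of 4 wild-type tumours, wild-type tumour 3 stood far from the others in 3 of the 33 values examined (30 genes and 3 means over genes). Its Pex2 level was 251 CPM, against 65.5 to 84.5 CPM in the other wild-type tumours. Phyh stood at 271 CPM in that tumour, against 115 to 130 CPM in the other wild-type tumours, and Amacr at 15.4 CPM, against 7.73 to 8.56 CPM. A distance of this size is expected by chance in about 1 of 20 groups, and the values share a library, so they are not independent.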

How the results depend on the processing

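Of 363 recomputed values of named genes, 355 kept their sign and stayed uncalled, 1 became a call and 7 took the opposite sign. The call was the fat minus tumour difference of Scp2 without knockout fat 3 (-1.91). The opposite signs of these named genes were all in tumours with 1 library left out. Over those fits Pex7 ranged from -0.81 to 0.0699 (positive without wild type 3), Agps from -0.17 to 0.59 and Acaa1b from -0.42 to 1.03 (both negative without knockout 1), Pex5 from -0.0017 to 0.17 (negative without wild type 4), and Acaa1a from -0.11 to 0.34 (negative without knockout 3, wild type 1 or wild type 4). In fat, 7 of all 30 genes took the opposite sign in at least 1 fit with a library left out. Ehhadh turned positive, and Pex3, Pex16, Pex6, Abcd4, Acox3 and Hacl1 turned negative. The cause was not tested. Leaving out 1 library at a time, the fat genes lower at an unadjusted p under 0.05 numbered 2 to 11 (5.64% to 10% of all genes). With all libraries they numbered 7 (8.14% of all genes). Those with the knockout range below numbered 11 to 17 (14.6% to 20.4% of all genes), against 11 with all (11.3%). Tumour genes under that p numbered 0 to 2 (7.56% to 15% of all genes), against 0 with all (12.4%). Those of the tissue difference numbered 2 to 8 (8.87% to 15.6% of all genes), against 3 with all (11.7%). Calls of that difference numbered 0 to 1, against 0 with all. Over all genes, limma called 2 to 4 in fat (1 with all). Without the libraries numbered 2, limma called 5 over all genes in fat. In those fits 2 fat genes of the 30 were lower at an unadjusted p under 0.05 (6.28% of all genes), and 1 passed that p in the tissue difference (7.65%). DESeq2 called 780 tumour genes, 0 of the 30 among them, where edgeR called 0. With the replicate block, calls of the 30 stayed at 0 in fat, in tumours and in the tissue difference. Under the block the fat means over genes differed by -0.40 and -0.45, and Abcd2 had -1.77 (limma adjusted p = 0.161); it changed no call. Fat libraries share only a number: deviations of the same number correlated at -0.05, 0.15 and 0.15, and knockout 1 correlated best with wild type 2 (0.18). With groups of 3 and 4 libraries, a single library can decide a value, and low genes such as Acaa1b in tumours rest on few counts.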
